A study of Mus musculus with 36 samples.

Results

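The odd-skipped, Wilms tumour and spalt-like zinc-finger transcription factors of nephron progenitor cells (NPCs) were followed across doses of a Wnt pathway agonist and after removal of β-catenin or of the Tcf/Lef factors. The 6 genes were chosen by name (Osr1, Osr2, Wt1, Sall1, Sall2 and Sall4) and matched to the RNA-seq tables by Ensembl gene ID. All 6 were listed in the Tcf/Lef table, among 26472 genes. The wild-type table (25760 genes) and the β-catenin table (26863 genes) listed 5 of them, without Sall4. Genes averaging under 10 normalized counts in a table were not tested, which left 5 of the 6 in the wild-type and β-catenin tables and 4 in the Tcf/Lef table, where Osr2 and Sall4 were too low. A normalized count is the read count divided by a size factor of the library. A gene is said to be called, to rise or to fall where limma gave it an adjusted p under 0.05 over all genes tested and the change was 0.5 or more on the log2 scale.

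The genes belong to separate zinc-finger families that meet in the nephron progenitor. Osr1 and its paralogue Osr2 are odd-skipped related factors. Osr1 marks the intermediate mesoderm from which the kidney arises, is needed for kidney formation, and acts with Six2 and Groucho corepressors to hold progenitors in an undifferentiated state. Wt1 is required for survival of the metanephric mesenchyme and for the later step from mesenchyme to epithelium, and in the mature kidney it remains on in podocytes, the filtration cells of the glomerulus. Sall1 is needed for the ureteric bud to invade the mesenchyme and for progenitor maintenance, and it recruits the NuRD corepressor complex through its N-terminal motif. Sall2 and Sall4 are relatives of Sall1, and Sall4 is best known for its part in pluripotent cells. Canonical Wnt signals act through β-catenin, which enters the nucleus and pairs with Tcf/Lef factors on DNA. In the nephron progenitor a low Wnt input goes with renewal and a high input with induction of nephron formation.

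Primary mouse NPCs from E16.5 kidneys, enriched by magnetic depletion of other cell types, were cultured in nephron progenitor expansion medium with the GSK3β inhibitor CHIR99021 (CHIR), which stabilizes β-catenin. CHIR was absent (0 μM, no CHIR), at 1.25 μM (low CHIR) or at 5 μM (high CHIR). Wild-type (WT) NPCs were taken at all 3 doses after a day, with 3 libraries per dose. All other groups were transfected with mCherry RNA and sorted for mCherry, and were kept first in low CHIR and then for a day in low or high CHIR. By the paper, the low CHIR period after transfection was a day for the β-catenin designs. It was a day longer for cells given guides to Tcf/Lef factors and their controls, so culture time differed between these designs. β-catenin was removed in 2 ways: by Cre RNA in cells with conditional β-catenin alleles (B-catenin_c_c; Cre-pos against Cre-neg), and by sgRNAs to Ctnnb1 in Cas9-eGFP cells (Ctnnb1 sgRNA against GFP sgRNA), with 2 libraries per group and dose. The QKO group was made from Cas9-eGFP cells given sgRNAs to Tcf7l1, Tcf7l2, Tcf7 and Lef1, beside control cells with the GFP sgRNA, with 3 libraries per group and dose but 2 for QKO in low CHIR. The controls therefore carried the Cas9-eGFP transgene or the conditional alleles too, and each population was a sorted mixture and not a clone. The labels do not say whether libraries of a group came from separate animals or cultures, so p-values measure the spread between these libraries, which may be partly technical.

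The 36 libraries held 13089780 to 76071568 reads on genes, and the deepest was replicate 1 of the WT no CHIR group. Markers of the nephron progenitor (Six2, Cited1, Eya1, Meox1 and Crym) were present in every group, with summed levels of 19600 to 23900 normalized counts in WT no CHIR, 8310 to 12600 in low CHIR and 279 to 657 in high CHIR. The stromal list was also present throughout (1050 to 29100 over the 36 libraries), with Col1a1 its most abundant gene in most groups, so the isolates also held RNA of stromal genes. In bulk RNA, fewer cells of a type and less RNA per cell cannot be told apart. Ctnnb1 RNA stood at 1040 to 1652 normalized counts in the 4 Ctnnb1 sgRNA libraries and at 2521 to 3397 in the 4 GFP sgRNA libraries, a difference that passed the test in high CHIR (log2 fold change −0.89, limma, adjusted p = 0.0429) but not in low CHIR (−1.16, adjusted p = 0.252). In the Cre groups Ctnnb1 RNA overlapped, at 2254 to 3085 in Cre-pos and 2207 to 3880 in Cre-neg, and gene counts summed over all exons do not show a deletion of some of them, so these groups are called by their labels. Among the 4 genes targeted in QKO, Tcf7 fell in high CHIR (−1.64, adjusted p = 0.0175), from 268 to 535 in control to 110 to 180 in QKO, Lef1 did not pass (−2.12, adjusted p = 0.131), and Tcf7l1 (0.15, adjusted p = 0.778) and Tcf7l2 (−0.35, adjusted p = 0.513) overlapped between groups. In low CHIR Tcf7l1 was at 1736 to 2225 in control and 827 to 1286 in QKO, and Tcf7 at 141 to 220 and 66.2 to 97.7. For these genes the groups did not overlap but neither was called, while Lef1 and Tcf7l2 overlapped. Tcf7 was also lower in high CHIR with the Ctnnb1 sgRNA (146 to 194) than with the GFP sgRNA (394 to 501). The parts of the guides and of the CHIR response in these values were not tested apart. Cas9 cuts alter the sequence and need not lower the RNA. Removal was partial: the paper reports reduced and not absent β-catenin and Tcf/Lef proteins in transfected cells. Below, cells without β-catenin are the Cre-pos and Ctnnb1 sgRNA groups, whatever β-catenin they still held.

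CHIR stabilizes β-catenin, which pairs with Tcf/Lef factors on DNA. The bases before the start of Sall1 are shown with the Tcf/Lef core motif marked, from the window chosen because it held the motif. Sall1 was the most abundant member per length in high CHIR where β-catenin was left in place, QKO cells included, and also in WT low CHIR. A link between the motif and the level of Sall1 was not tested. RefSeq windows of 300 bases (250 before and 50 after a start, GRCm38.p6) were matched for 2 of the 6 genes, with 3 windows for Sall1 and 2 for Sall2. The core was searched as CTTTGA on both strands (TCAAAG on the other) and occurs in 16% of 32851 such windows. One of the 5 member windows held it, the outermost Sall1 window, with 147 bases between the motif and the start. That window had a GC content of 57.3%, beside a median of 52.7% over all windows. The match is a description of the letters, and these data hold no measurement of binding. Capitals mark the motif in the 250 bases before the start, on the minus strand at chr8:89044163-89044412.

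Sall1: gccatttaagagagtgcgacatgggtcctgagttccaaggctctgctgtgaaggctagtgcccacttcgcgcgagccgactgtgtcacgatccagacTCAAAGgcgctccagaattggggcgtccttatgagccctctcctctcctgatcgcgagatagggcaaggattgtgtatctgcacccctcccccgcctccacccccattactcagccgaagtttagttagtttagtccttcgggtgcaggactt

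The second stretch shows how close Wt1 lies to Wt1os, the antisense-named long non-coding RNA gene whose level followed it most closely. Wt1 starts at position 105126529 of chromosome 2 on the plus strand, Wt1os starts at 105126510 on the minus strand, and the genes run apart from each other. The capitals mark the 18 bases that separate the annotated starts, in the plus strand at chr2:105126505-105126534 of GRCm38. The annotated spans share no base, so no annotated base belongs to both. The library kit does not mark strand, so a read running past an annotated start could count on the other gene. Wt1os itself overlaps 5 other annotated genes, among them the protein-coding Gm11060 on the plus strand.

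Wt1 and Wt1os: tttgctGAGCTAGGCTAGGGCTGCtgtgtg

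Levels of the members differed widely between genes and reordered with CHIR. Scaled to exonic length and to the reads on genes of each library (RPKM), Osr1 was highest in WT no CHIR (mean 104), above Sall1 (26.0), Sall2 (10.5), Wt1 (9.37) and Osr2 (0.49). In WT low CHIR Sall1 was first (46.7) and Osr1 next (21.8), above Sall2 (17.9), Wt1 (10.7) and Osr2 (0.21). In WT high CHIR Sall1 stayed first (50.1), followed by Sall2 (11.1), Wt1 (0.63) and Osr2 (0.15), with no read on Osr1. Neighbours whose library values overlapped, so that their order is within the spread, were Sall2 and Wt1 in WT no CHIR and Osr1 and Sall2 in WT low CHIR. In high CHIR Cre-pos cells Osr1 was first again (51.8), above Sall1 (19.3). In high CHIR Ctnnb1 sgRNA cells the libraries of Osr1 (26.0 and 42.7) and Sall1 (29.4 and 31.1) overlapped, so neither was first beyond the spread. Sall4 was at 0.04 or less in the groups of the Tcf/Lef table. Osr1, Wt1, Sall1 and Sall2 were thus the members with most reads, and Osr2 and Sall4 rested on few.

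**Figure D1:**
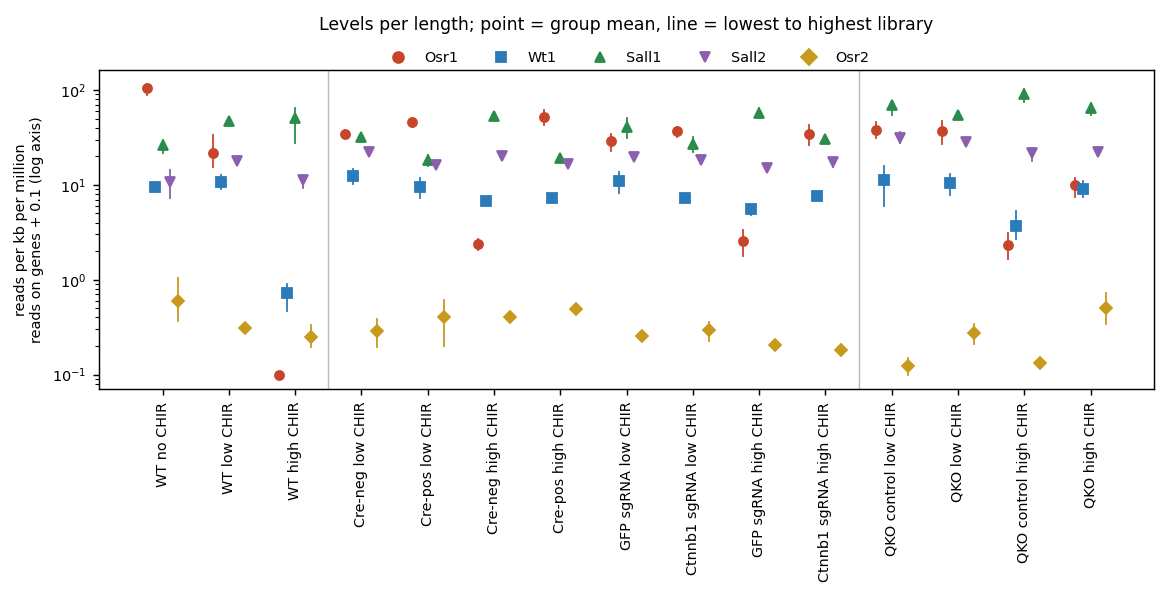
Level of each member as RPKM, reads scaled to exonic length and library depth (log axis, 0.1 added), in the groups of the 3 tables; points are group means and lines run from the lowest to the highest library. Osr1 is first in WT no CHIR (104) and without a read in WT high CHIR, while Sall1 is first in WT low and high CHIR (46.7 and 50.1).

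Of the members tested, Osr1 had the largest change with dose in WT NPCs. Normalized counts of Osr1 (Ensembl ENSMUSG00000048387, chromosome 12, 9570116 to 9581500, plus strand, GRCm38) were 3563, 4469 and 4627 in the 3 WT no CHIR libraries, 677, 667 and 1387 in low CHIR, and 0, 0 and 0 in high CHIR. The 3 doses did not overlap. Taking the 3 reads that a count of 0 allows in each library (at most 4.19 normalized counts), Osr1 was at least 217-fold lower in high CHIR than in low CHIR (mean 910.0 ± 413 SD, n = 3) and at least 1007-fold lower than in no CHIR (mean 4219 ± 574 SD, n = 3). Osr1 was 4.64-fold higher in no CHIR than in low CHIR (log2 fold change 2.29, SE 0.29, limma, adjusted p = 0.00372). For high against low CHIR the test gave an adjusted p of 4.86e-08, with a fitted log2 fold change of −9.74 that depends on the count added before the log and is no bound. Of 11239 genes averaging 100 or more normalized counts in WT low CHIR, 2 were at 0 in every high CHIR library, Osr1 and Gm29418. Nephron progenitor markers fell with it, all 5 of 5 for high against low CHIR (median −4.97 on the log2 scale), and their part in the Osr1 result was not tested. Other marker lists moved as well between low and high CHIR. Summed stromal markers were at 11200 to 16900 normalized counts in low CHIR and 3870 to 11500 in high CHIR (1 of 8 tested lower), ureteric epithelium markers at 367 to 720 and 1320 to 5850 (2 of 5 higher, Gata3 the most abundant), and endothelial markers at 20.4 to 35.5 and 76.6 to 784 (1 of 3 higher, with Tie1 at 0 in high CHIR). Summed blood markers were at 50.3 to 73.2 in no CHIR, 18.0 to 53.9 in low CHIR and 11.2 to 14.0 in high CHIR, within 4.25 to 99.7 over all 36 libraries. Their part in the WT values that follow was not tested.

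**Figure D2:**
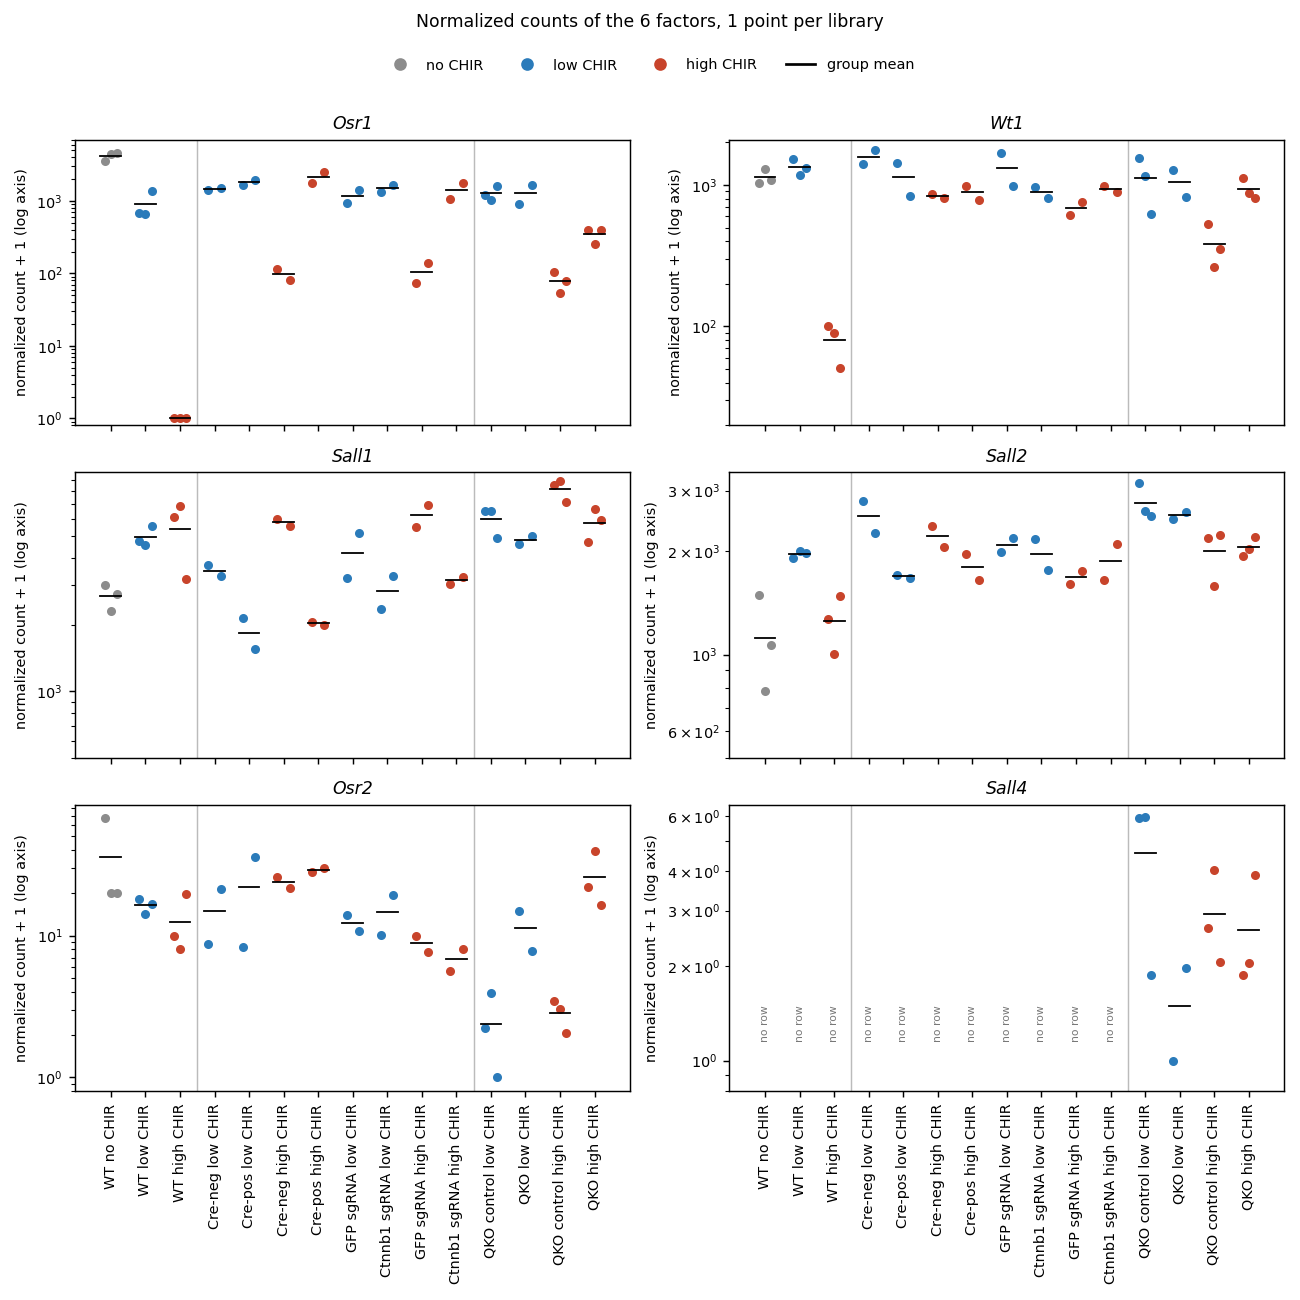
Normalized count plus 1 of the 6 members in every library (points, log axis), in 15 groups coloured by CHIR dose; bars mark group means. Osr1 sits at 0 normalized counts in the 3 WT high CHIR libraries and at 52.6 to 138 in the high CHIR controls of the other tables. It is at 1063 to 2512 in the high CHIR Cre-pos and Ctnnb1 sgRNA libraries.

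Wt1 fell in high CHIR. Wt1 (ENSMUSG00000016458, chromosome 2, 105126529 to 105173616, plus strand) stood at 1033, 1307 and 1077 normalized counts in WT no CHIR, 1536, 1167 and 1317 in low CHIR, and 99.7, 89.3 and 49.5 in high CHIR. The no and low CHIR libraries overlapped and the high CHIR libraries lay below all of them. Wt1 in high CHIR was at 5.93% of its low CHIR mean (log2 fold change −4.11, SE 0.25, limma, adjusted p = 9.64e-06). No against low CHIR did not pass the test (−0.23, 95% interval −0.79 to 0.33, adjusted p = 0.64). Wt1os, of the same locus, showed the same order, with 84.1, 98.1 and 89.4 in no CHIR, 97.2, 118 and 98.2 in low CHIR and 4.48, 1.40 and 2.80 in high CHIR (high against low −4.83, SE 0.37, adjusted p = 4.31e-05).

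Sall1 did not follow Osr1 and Wt1. Sall1 (ENSMUSG00000031665, chromosome 8, 89027235 to 89044162, minus strand) was at 3000.2, 2291 and 2751 normalized counts in WT no CHIR, 4771, 4571 and 5538 in low CHIR, and 6131, 6844 and 3197 in high CHIR. All no CHIR libraries lay below the others, and the high CHIR group was spread on both sides of low CHIR. Sall1 rose in high against no CHIR (log2 fold change 0.94, SE 0.25, limma, adjusted p = 0.0210), a call lost when replicate 2 or 3 of no CHIR or replicate 1 or 2 of high CHIR was left out (0.73 to 1.28 over the 6 leave-outs, highest adjusted p 0.0738) and in a limma fit of only the groups compared (adjusted p = 0.0565). High against low CHIR gave 0.05 (95% interval −0.51 to 0.61, adjusted p = 0.931), and no against low CHIR −0.89 (adjusted p = 0.0698), the latter called by DESeq2 (adjusted p = 0.0156) and by limma with only the groups compared (adjusted p = 0.0038). Replicate 3 of WT high CHIR had the lowest Sall1 of its group and the highest Lef1, a Wnt target and transducer (9125 normalized counts against 3811 and 4197); the link was not tested.

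Sall2 was highest at low dose, and whether it was called depended on the fit. Sall2 (ENSMUSG00000049532, chromosome 14, 52311172 to 52328762, minus strand) was at 1495, 785 and 1069 normalized counts in WT no CHIR, 1915, 2005 and 1970.1 in low CHIR, and 1267, 1005 and 1477 in high CHIR. The low CHIR libraries lay above those of both other doses, which overlapped each other. Neither high against low CHIR (log2 fold change −0.67, SE 0.22, limma, adjusted p = 0.0873) nor no against low CHIR (−0.86, SE 0.22, adjusted p = 0.0539) passed the test over all genes. Both passed by DESeq2 (adjusted p = 0.0481 and 0.0136) and in limma fits of only the groups compared (adjusted p = 0.0443 and 0.0219). Each also passed without 1 library: high against low at −0.80 (adjusted p = 0.0385) without high CHIR replicate 3, and no against low at −1.10 (adjusted p = 0.0184) without no CHIR replicate 1, the deepest library.

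Osr2 and Sall4 were scarce. Osr2 (ENSMUSG00000022330, chromosome 15, 35296098 to 35303305, plus strand) reached 66.3, 19.0 and 19.0 normalized counts in WT no CHIR, 17.1, 13.3 and 15.6 in low CHIR, and 8.96, 6.98 and 18.7 in high CHIR. The no CHIR libraries lay above those of both other doses, which overlapped each other, and no dose comparison passed the test (high against no CHIR −1.37, 95% interval −2.63 to −0.10, adjusted p = 0.108). Sall4 (ENSMUSG00000027547, chromosome 2, 168748332 to 168767943, minus strand) ranged from 0 to 4.94 normalized counts over the 11 libraries of the Tcf/Lef table. In the wild-type and β-catenin tables every gene listed had at least 10 reads in total, and Sall4 had no row. Genes that overlap members (1700022H16Rik at Osr1 and Gm14261 at Sall4) had no row in the tables used.

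In WT NPCs, therefore, 2 of 5 members passed for high against low CHIR (Osr1 and Wt1, both lower), beside 10.4% of all 17411 genes tested, of which 5.33% were higher and 5.05% lower. One of 5 passed for no against low CHIR (Osr1), beside 4.97% of all genes, a share that rested on single libraries (865 genes with all libraries and 113 without replicate 3 of no CHIR). For high against no CHIR 3 of 5 passed (Osr1 and Wt1 lower, Sall1 higher), beside 23.4% of all genes. These comparisons share libraries: each group of libraries enters 2 of the 3 comparisons.

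**Figure D3:**
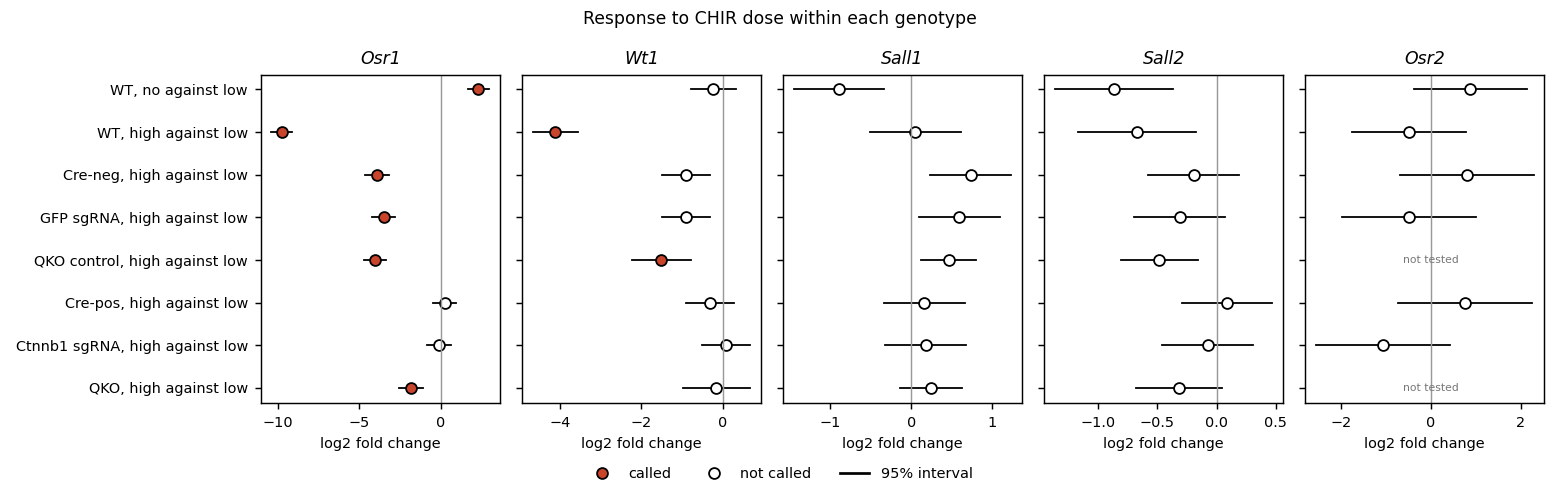
Log2 fold change between CHIR doses (points, with 95% intervals from limma; filled where called) for Osr1, Wt1, Sall1, Sall2 and Osr2 in WT, Cre, Cas9 and QKO cells. Osr1 is below 0 in WT, control and QKO cells (−9.74, −3.92, −3.51, −4.06 and −1.84 for high against low CHIR) and near 0 in Cre-pos and Ctnnb1 sgRNA cells (0.22 and −0.13).

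Removing β-catenin was compared with intact β-catenin at each dose to ask which members need it for their response to CHIR. In high CHIR, Osr1 was at 115 and 79.9 normalized counts in Cre-neg and at 1765 and 2512 in Cre-pos, 21.9-fold higher (log2 fold change 4.44, SE 0.33, limma, adjusted p = 2.21e-06). The Cas9 route gave 71.9 and 138 with the GFP sgRNA and 1063 and 1760 with the Ctnnb1 sgRNA, 13.5-fold higher (3.77, SE 0.33, adjusted p = 1.84e-05). All 4 high CHIR libraries of the Cre-pos and Ctnnb1 sgRNA groups lay above every high CHIR control. The 8 low CHIR libraries of this table were at 943 to 1966, a range that held 3 of those 4, with the other, a Cre-pos library, above it. No difference in Osr1 was called in low CHIR (Cre 0.30, adjusted p = 0.798, Cas9 0.38, adjusted p = 1.00). The dose response of the controls, −3.92 in Cre-neg (adjusted p = 5.72e-06) and −3.51 in GFP sgRNA (adjusted p = 1.72e-05), was not seen in Cre-pos (0.22, 95% interval −0.49 to 0.92) or Ctnnb1 sgRNA cells (−0.13, −0.83 to 0.58). The difference between these dose responses passed by an interaction term for Cre (4.14, SE 0.46, adjusted p = 0.00042) and for Cas9 (3.39, SE 0.46, adjusted p = 0.00413).

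Sall1 moved the other way in the same cells. In high CHIR Sall1 was at 6005 and 5584 normalized counts in Cre-neg and at 2063 and 1999.8 in Cre-pos, 35.1% of the control mean (log2 fold change −1.51, SE 0.23, limma, adjusted p = 0.00101). It was at 5517 and 6916 with the GFP sgRNA and at 3060.0 and 3261 with the Ctnnb1 sgRNA, 50.8% of the control mean (−0.97, SE 0.23, adjusted p = 0.0310). Neither pair of groups overlapped, but the Cas9 call was lost when any 1 of its 4 libraries was left out (adjusted p 0.0666 to 0.272). Sall1 was also lower in low CHIR Cre-pos cells, at 2131 and 1545 against 3692 and 3297 in Cre-neg, a difference not called without a replicate block (−0.94, SE 0.23, limma, adjusted p = 0.129) and called with it (adjusted p = 0.00422). The block pairs same-numbered libraries within the Cre or the Cas9 groups. The higher Sall1 level at high dose in the controls passed likewise with the block (Cre-neg 0.73, limma, adjusted p = 0.0771 without and 0.00441 with it, GFP sgRNA 0.59, adjusted p = 0.16 and 0.0164), and by DESeq2 in Cre-neg cells (adjusted p = 0.0186). Neither interaction passed (Cre −0.57, adjusted p = 0.703, Cas9 −0.42, adjusted p = 0.875).

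Wt1 was not called by β-catenin status at either dose. In high CHIR it was at 862 and 811 normalized counts in Cre-neg, 987 and 781 in Cre-pos, 617 and 760.0 with the GFP sgRNA and 978 and 892 with the Ctnnb1 sgRNA. The Cre groups overlapped (log2 fold change 0.07, 95% interval −0.52 to 0.66, limma, adjusted p = 0.919), and the Ctnnb1 sgRNA libraries lay above the GFP sgRNA libraries without passing (0.45, −0.15 to 1.04, adjusted p = 0.407). High against low CHIR took Wt1 to 53.0% of its mean in Cre-neg (−0.91, adjusted p = 0.0623) and 51.9% in GFP sgRNA cells (−0.90, adjusted p = 0.067), beside 5.93% in WT cells. Neither was called by limma without the replicate block and both were called with it (adjusted p = 0.0198 and 0.0208), the Cre-neg change also by edgeR (0.0401) and DESeq2 (0.00897). Without replicate 2 of GFP sgRNA low CHIR the GFP sgRNA change was called (−1.29, adjusted p = 0.0327). The tables were normalized separately and the cells treated differently, so the difference in size between tables was not tested. In Cre-pos cells the Wt1 mean went from 1133 in low CHIR to 884 in high CHIR, and in Ctnnb1 sgRNA cells from 887 to 935. Libraries of low and high CHIR overlapped in both of these groups but not in their controls. In the main fit neither dose response was called, and no interaction of removal and dose was called for Wt1. In low CHIR Wt1 was at 1405 and 1754 in Cre-neg, 1427 and 839 in Cre-pos, 1671 and 980.5 with the GFP sgRNA and 962 and 812 with the Ctnnb1 sgRNA, and neither difference passed (Cre −0.52, adjusted p = 0.54, Cas9 −0.53, adjusted p = 1.00).

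Sall2 and Osr2 were not called in any of the 4 removal comparisons. Sall2 ranged from 1609.6 to 2803 normalized counts over the 16 libraries of this table, with log2 fold changes in high CHIR of −0.29 by Cre (95% interval −0.68 to 0.09) and 0.15 by Cas9 (−0.23 to 0.53). In low CHIR Sall2 was at 2803 and 2256 in Cre-neg and at 1707 and 1674 in Cre-pos, without overlap (−0.57, limma, adjusted p = 0.233). Osr2 reached at most 34.8 normalized counts, with −0.39 by Cas9 (limma, adjusted p = 0.81) and 0.30 by Cre (adjusted p = 0.86) in high CHIR.

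Over the 5 members tested, 2 passed in high CHIR for Cre (Osr1 higher, Sall1 lower), beside 8.65% of 16780 genes, 5.9% higher and 2.75% lower. The same 2 passed for Cas9, beside 5.09% of genes, 3.44% higher and 1.64% lower (854 genes, but 205 without replicate 2 of Ctnnb1 sgRNA). In low CHIR no member passed by limma without the block, beside 0.328% of genes for Cre and 0.0536% for Cas9. At an unadjusted p under 0.05 there were 2 members for Cre and 1 for Cas9, and DESeq2 and the block each called 1 for Cre (Sall1) and 0 for Cas9, where edgeR called 0 in both. The dose comparison called 1 member (Osr1) in Cre-neg, beside 8.05% of genes, and 1 (Osr1) in GFP sgRNA cells, beside 7.51%. With the block it called 3 in each (Osr1, Wt1 and Sall1), beside 2661 and 2562 of the 16780 genes. By limma, edgeR and DESeq2 it called none in Cre-pos, beside 0.292% of genes, or in Ctnnb1 sgRNA cells, beside 0.763%, and 0 members were at an unadjusted p under 0.05 in either. The interaction called 1 member (Osr1) for Cre, beside 0.995% of genes, and 1 (Osr1) for Cas9, beside 0.518%. At an unadjusted p under 0.05 it had 1 member for Cre and 2 for Cas9. The removal, dose and interaction values of each route rest on the same 8 libraries.

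**Figure D4:**
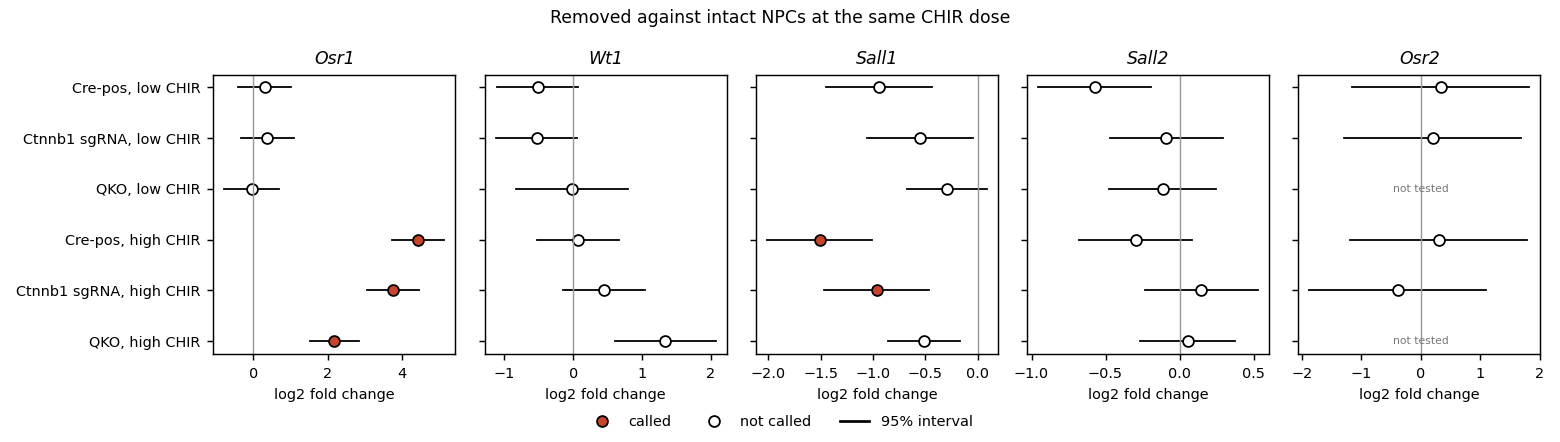
Log2 fold change of Cre-pos, Ctnnb1 sgRNA and QKO cells against their controls (points, with 95% intervals from limma, filled where called), at low and high CHIR. In high CHIR Osr1 lies above 0 in all 3 designs (4.44, 3.77 and 2.18) and Sall1 below 0 (−1.51, −0.97 and −0.51, the last not called); in low CHIR no member is called without the replicate block.

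Nephron progenitor markers moved beside Osr1 in high CHIR. Their summed level was 2550 to 4440 normalized counts in Cre-neg and 8290 to 13000 in Cre-pos, with 4 of 5 markers higher, and 3540 to 4110 with the GFP sgRNA and 11900 to 12100 with the Ctnnb1 sgRNA, with 3 of 5 higher. None of the 8 stromal markers tested was called in either comparison, and their summed level was 5040 to 6150 in Cre-neg, 7260 to 12700 in Cre-pos, 4780 to 14300 with the GFP sgRNA and 12300 to 19500 with the Ctnnb1 sgRNA. The part of these markers in the Osr1 and Sall1 values was not tested.

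Osr1 also rose in high CHIR in cells given guides to the 4 Tcf/Lef factors. In high CHIR, Osr1 was at 104, 52.6 and 77.6 normalized counts in control and 402, 258 and 392 in QKO cells, 4.49-fold higher without overlap (log2 fold change 2.18, SE 0.30, limma, adjusted p = 0.00288). The QKO libraries stayed below the low CHIR controls (1222, 1017 and 1636), at 27.1% of their mean, against 6.04% for the high CHIR controls. Osr1 therefore still fell with CHIR in QKO cells, from 906 and 1669 to these values (−1.84, SE 0.34, adjusted p = 0.0152), a call lost without replicate 3 of QKO low CHIR (adjusted p = 0.162) or replicate 2 of QKO high CHIR (adjusted p = 0.0771). In control cells the fall was −4.06 (SE 0.30, adjusted p = 6.75e-06). The difference between the 2 dose responses did not pass (interaction 2.22, SE 0.45, limma, adjusted p = 0.122). It passed in a fit with replicate pairing (block 2.43, limma, adjusted p = 0.00819). Low CHIR values of Osr1 overlapped between QKO and control (−0.04, 95% interval −0.78 to 0.70, adjusted p = 0.989).

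Wt1 in the Tcf/Lef table fell with CHIR in control cells. It was at 1561, 1157 and 622 normalized counts in low CHIR control, 532, 261 and 349.8 in high CHIR control, 1284 and 823 in low CHIR QKO, and 1115, 879 and 802 in high CHIR QKO cells. The high CHIR controls lay below every other library. The control dose response was −1.51 (SE 0.33, limma, adjusted p = 0.00962) and that of QKO cells −0.16 (95% interval −0.97 to 0.66, adjusted p = 0.899). In high CHIR, QKO was 2.45-fold above control (1.34, SE 0.33), which missed the threshold without the replicate block (adjusted p = 0.061) and passed with it (1.34, adjusted p = 0.00297). Wt1os rose in the same comparison (2.34, SE 0.35, adjusted p = 0.0041), from 10.7, 12.1 and 17.0 normalized counts to 99.1, 60.2 and 57.9.

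Sall1 was again highest in the high CHIR controls of this table. Its levels were 6509, 6485 and 4892 normalized counts in low CHIR control, 8486, 8885 and 7155 in high CHIR control, 4623 and 5006 in low CHIR QKO, and 4724, 6628 and 5917 in high CHIR QKO cells. In high CHIR the QKO libraries lay below all controls, at 70.4% of their mean (log2 fold change −0.51, SE 0.16, limma), a difference not called without the block (adjusted p = 0.128) and called with it (−0.51, adjusted p = 0.0339). The dose difference in control cells was 0.46 (SE 0.16, adjusted p = 0.068). Sall2 in the controls went from 3160.3, 2610.4 and 2536 to 2177, 1582 and 2233 with dose (−0.48, adjusted p = 0.0465), under the fold of 0.5 needed for a call, and it did not differ by QKO status beyond the spread (0.05, 95% interval −0.27 to 0.38, adjusted p = 0.904).

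Osr2 was too low in this table for the main test. It was at 2.96 normalized counts or less in all 6 controls, at 13.9 and 6.84 in QKO low CHIR, and at 20.9, 38.4 and 15.4 in QKO high CHIR. Every QKO library lay above every control, at both doses. With the filter on low values taken off, the QKO difference in high CHIR was 3.12 on the log2 scale (limma, adjusted p = 0.0146). At these read numbers the size is imprecise.

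Over the 4 members tested, 1 passed for QKO against control in high CHIR (Osr1, higher), beside 2.54% of 15878 genes, 2.05% higher and 0.491% lower; with the replicate block 3 passed (Osr1, Wt1 and Sall1), beside 1181 of the genes. None passed in low CHIR by limma, edgeR or DESeq2, beside 0.0063% of genes, and 0 were at an unadjusted p under 0.05. In control cells the dose comparison called 2 (Osr1 and Wt1, lower), beside 14.9% of genes, and in QKO cells 1 (Osr1, lower), beside 2.54%. The interaction called none by limma or edgeR, beside 0.126% of genes, with 2 members at an unadjusted p under 0.05, and 1 (Osr1) with the block and by DESeq2. Nephron progenitor markers were at 1030 to 2520 summed normalized counts in high CHIR control and 4060 to 5750 in QKO, 4 of 5 higher, and their part in these values was not tested.

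Members were also compared with each other and with all genes over the 36 libraries, on log2 values centred within each table. Over all libraries Osr1 and Wt1 went together (Pearson r = 0.876), Osr1 and Sall1 in opposite directions (−0.569), and Wt1 and Sall1 weakly so (−0.284). The WT high CHIR libraries, with Osr1 at 0 and Wt1 at 49.5 to 99.7 normalized counts, enter these values. No r was computed within a table for these pairs. Without β-catenin in high CHIR, Osr1 was 21.9-fold (Cre) and 13.5-fold (Cas9) above control and Wt1 1.06-fold and 1.36-fold. Both genes were lower at high than at low CHIR in WT and control cells, and higher in QKO than in control in high CHIR. Sall2 was only loosely tied to the others (0.181 with Osr1, 0.33 with Wt1, 0.185 with Sall1). These coefficients describe libraries that share doses, sources and depth, and no p is attached to them.

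Among 14951 genes tested in all 3 tables, the 3 closest to Osr1 were Meox2, a homeobox gene (r = 0.961), AC166821.1, a long intergenic non-coding RNA near Six2 on chromosome 17 (0.953), and Cbr2, a carbonyl reductase (0.942). All 3 fell in WT high against low CHIR (log2 fold change −8.31, −8.28 and −5.43) and were higher in high CHIR without β-catenin by both routes (Meox2 5.11 and 4.44, AC166821.1 3.15 and 1.95, Cbr2 4.56 and 4.47, for Cre and Cas9) and in QKO (2.56, 3.25 and 2.64), each called by limma. Those of Wt1 were Wt1os (0.952), Lsp1, a leukocyte-named actin-binding protein gene (0.935), and Hoxc8 (0.927), each lower in WT high CHIR (−4.83, −4.91 and −3.01). The closest genes, here and below, were picked by correlation over these same libraries. Changes like those of the member therefore follow from the choice and are no separate support.

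Those of Sall1 were Mex3a, an RNA-binding protein gene (r = 0.87), Rcbtb1 (0.868) and Vezf1, a zinc-finger factor (0.857). In high CHIR without β-catenin by Cre, Mex3a (log2 fold change −0.93, limma, adjusted p = 0.00822) and Rcbtb1 (−0.77, adjusted p = 0.0174) fell and Vezf1 did not pass (−0.62, adjusted p = 0.0504). None of the 3 passed by Cas9 (−0.63, −0.38 and −0.41, lowest adjusted p 0.0856) or in QKO high CHIR (−0.51, −0.41 and −0.33, lowest adjusted p 0.119). Those of Sall2 were looser, with Gtf2i, a general transcription factor gene (0.839), Slc25a15, a mitochondrial ornithine carrier (0.793), and Mfsd1 (0.767).

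**Figure D5:**
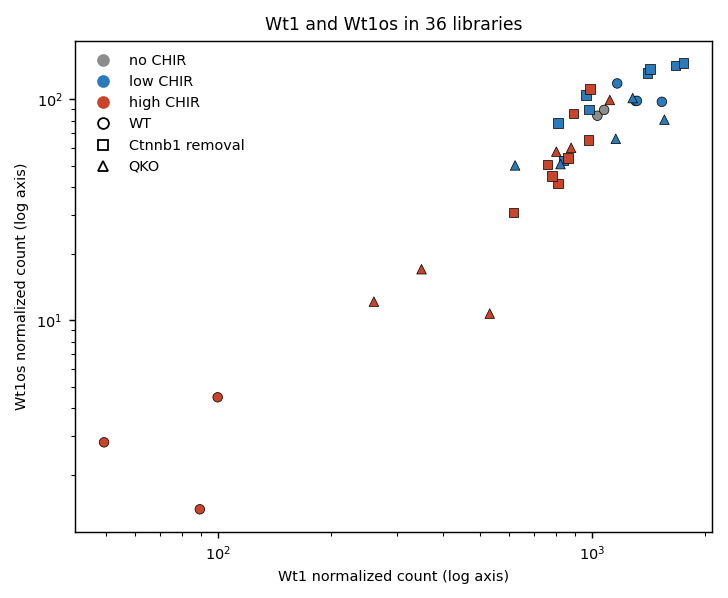
Normalized counts of Wt1 (horizontal) and Wt1os (vertical) in the 36 libraries (log axes), coloured by CHIR dose. The WT high CHIR libraries sit lowest on both axes (Wt1 49.5 to 99.7, Wt1os 1.40 to 4.48); within tables r was 0.981 (9 WT libraries), 0.889 (16) and 0.892 (11).

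Partners and targets of the members were taken as lists. Of 14 NPC regulators listed as partners, 7 fell and 0 rose in WT high against low CHIR (median log2 fold change −1.41, beside 0.01 over all genes). Among the 7 were Meox2 (1612 to 8.47 normalized counts, group means) and Six2, the progenitor maintenance factor (2922 to 68.5, log2 fold change −5.40, limma, adjusted p = 3.18e-08). Six2, Cited1, Eya1 and Meox1, also of the 7, are in the progenitor marker list too, and Meox2 is the gene closest to Osr1. These counts thus overlap those given above. Whether each listed gene acts with a member was not tested. In high CHIR without β-catenin, 4 rose and 2 fell of 13 tested by Cre (median −0.01), and 3 rose and 2 fell by Cas9 (−0.21). In QKO high CHIR 4 of 14 rose and 0 fell (0.02), namely Meox2 (2.56), Meox1 (1.74), Cited1 (1.73) and Six2 (1.64). Members of this list were thus split, with Pax2 (−2.55) and Six4 (−1.17) lower in Cre-pos high CHIR beside the genes that rose.

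Among genes of the corepressors that members bind, 0 or 1 per list was called in each comparison given here. The share of all genes called was 10.4% in WT high against low CHIR. In high CHIR it was 8.65% for Cre, 5.09% for Cas9 and 2.54% for QKO. Of 13 NuRD subunits, which Sall proteins recruit, 1 fell and 0 rose in WT high against low CHIR (median −0.14), the remodeller gene Chd3 (390.4 to 233 normalized counts; log2 fold change −0.75, limma, adjusted p = 0.0319). That call was lost without replicate 1 or 3 of low CHIR or replicate 2 or 3 of high CHIR (limma, adjusted p 0.0551 to 0.146). Chd3 was higher in high CHIR without β-catenin by Cre (2.05, adjusted p = 0.000411) and Cas9 (1.36, adjusted p = 0.0138), the 1 call of 13 in each (medians 0.13 and 0.06). In QKO high CHIR the 1 call of 13 was Mta3, higher (0.80, adjusted p = 0.00832; median −0.08). Of 5 Groucho genes tested, 0 were called in WT high against low CHIR (median 0.09) or without β-catenin in high CHIR (−0.07 and 0.07), and 1 fell in QKO high CHIR, Tle4 (−0.93, adjusted p = 0.0388; median −0.04).

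Genes known as Wt1 targets in kidney went both ways. In WT high against low CHIR 3 rose and 3 fell of 11 tested (median 0.05): Wnt4, the Wnt that drives epithelialization (134 ± 63.9 to 4632 ± 5609 normalized counts, SD, n = 3; log2 fold change 4.50, limma, adjusted p = 0.00358), Bmp7, a growth factor for progenitors (135 to 1544; 3.58, adjusted p = 0.00014), and the podocyte surface protein gene Podxl rose, and the BMP regulator gene Bmper (5608 to 223; −4.97, adjusted p = 0.00017), Gas1, a growth-arrest membrane protein gene (3905 to 249; −4.26, adjusted p = 0.000484), and the FGF antagonist gene Spry1 (−0.95) fell. The high CHIR mean of Wnt4 rested on replicate 3, at 11108 normalized counts beside 1315 and 1473, and without it Wnt4 was at 1394 (3.50, limma, adjusted p = 0.000296). Spry1 was not called without any 1 of the low CHIR replicates (limma, adjusted p 0.066 to 0.113). Without β-catenin in high CHIR 2 rose and 4 fell of 9 by Cre (median −0.20), Sall1 itself among the latter, and 1 rose and 4 fell of 9 by Cas9 (−0.81). In QKO high CHIR 0 of 10 were called (−0.28).

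Podocyte genes, of which Wt1 is a regulator, were split too, with 2 higher and 2 lower of 10 in WT high against low CHIR (median −0.27). Podxl rose (6.87 to 43.5 normalized counts; log2 fold change 2.35, limma, adjusted p = 0.0496; not called without any 1 of the 6 libraries, adjusted p 0.0572 to 0.18), and Tcf21, a factor also of stroma (8190 to 368; −4.99, adjusted p = 0.000891), and Foxc2, a forkhead factor (171 to 13.4; −3.63, adjusted p = 0.000199), fell. Foxc2 was higher in Cre-pos (2.74, adjusted p = 0.00177) and QKO cells (2.70, adjusted p = 0.00377) in high CHIR. The list had 3 higher and 1 lower of 10 by Cre (0.57), 1 higher of 10 by Cas9 (−0.15) and 3 higher of 12 in QKO (0.30).

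Early nephron genes, which mark the differentiation that follows induction, rose in WT high CHIR, where Osr1 and Wt1 fell. In WT high against low CHIR 5 of 12 rose and 0 fell (median 2.20), among them Wnt4 and Lef1 (364 to 5711 normalized counts; log2 fold change 3.90, limma, adjusted p = 0.000882). In QKO control cells 11 of 12 rose with dose (median 4.12), beside 6.98% of genes higher and 7.96% lower. Without β-catenin in high CHIR 1 rose and 6 fell of 11 by Cre (−2.62), and 0 rose and 4 fell by Cas9 (−2.22). In QKO high CHIR 1 of 12 was called, Ccnd1, higher (1.54, adjusted p = 0.0285; list median −1.20). Of 8 pluripotency partners of Sall4, 1 was above the filter in each table and it was not called in these comparisons. These list counts are to be read beside the shares of all genes called higher and lower in the same comparisons, given beside them or with the member counts.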

How the data were processed

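RNA was sequenced as paired reads of 150 bases from unstranded SMARTer libraries. The authors aligned reads with STAR to a combined GRCm38 and GRCh38 reference, counted uniquely aligned reads on genes with featureCounts, and deposited DESeq2-normalized counts (signal: read count divided by a library size factor) for each of 3 tables; these values are not raw counts. Deposited comparison tables (8, with the authors' fold changes and p-values) and 50 per-library columns were not used. Values of all 36 libraries were whole multiples of 1 read (tolerance 0.05), so reads were recovered. In 3 libraries 1 read was worth 0.994 to 1.01 normalized counts. These were left out of the count tests because the step lay near 1, although their values were whole multiples of it too. GFP sgRNA low CHIR and Cre-pos high CHIR then held replicate 2 alone in those tests. The precision set by depth is that of 13089780 to 76071568 reads on genes, and floors cover counting error only.

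Per table, limma 3.58.1 (trend) in R 4.3.3 was fitted to log2(normalized count + 1) over all libraries for genes with a mean of at least 10, with Benjamini-Hochberg adjustment over all genes tested. Calls needed an adjusted p under 0.05 together with a log2 change of 0.5 or more either way. Fold changes on this scale understate changes of low genes. Alternatives were edgeR 4.0.16 and DESeq2 1.42.0 on recovered reads, a pseudocount of 0.5, no filter, TMM rescaling, only the groups compared, a fold threshold of 1, a replicate block and leaving out each library. Scripts were tested on simulated data. Members and lists were chosen with earlier results of these data known. Named genes were the 6 members, genes overlapping them, the 3 genes most correlated with each well-measured member, up to 2 genes rising and 2 falling most per list in WT high against low CHIR, and the targeted genes; other genes named singly were chosen after their values were seen. A gene that this rule names is not reported here.

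Same-numbered libraries of the Tcf/Lef table deviated together (15 pairs, r 0.214 to 0.637, others −0.637 to 0.067). So did those of the β-catenin table within the Cre or Cas9 groups (24 pairs, 0.116 to 0.518). There the libraries of a group mirror each other because there are 2. Numbers were therefore taken as pairs in both, but only in the replicate block. The main fits, and the counts, shares and figures from them, used no pairing. In the WT table same-numbered libraries deviated together more weakly (r −0.016 to 0.272, others −0.231 to 0.075). The block was run there too, as an alternative. The pairing comes from these correlations and not from a label. Positions are from the GRCm38 annotation, and promoter sequences are from RefSeq (GRCm38.p6).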

Additional observations from a re-analysis of the deposited data

Results flagged for a closer look

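The change of Osr1 from low to high CHIR differed between cells with and without β-catenin. For Cre, the interaction of removal and dose was 4.14 on the log2 scale (limma, adjusted p = 0.00042), from −3.92 in Cre-neg to 0.22 in Cre-pos cells. For Cas9 it was 3.39 (adjusted p = 0.00413), from −3.51 in GFP sgRNA to −0.13 in Ctnnb1 sgRNA cells. Without each library in turn the values stayed at 3.88 to 4.40 for Cre and 2.93 to 3.85 for Cas9, all called.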

How the results depend on the processing

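Osr1 and Wt1 in WT high against low CHIR, Osr1 in WT no against low CHIR, Osr1 in high CHIR by Cre, Cas9 and QKO, Sall1 in high CHIR by Cre, the fall of Osr1 with dose in all 3 controls and both β-catenin interactions of Osr1 kept their direction and call under every alternative and leave-out run for them. Of 676 values of a member under another setting, leave-outs aside, 644 kept direction and call, 23 gained a call, 3 lost one and 6 changed sign. The edgeR and DESeq2 values among them lack the 3 libraries left out of the count tests. These were replicate 1 of GFP sgRNA low CHIR, replicate 1 of Cre-pos high CHIR and replicate 2 of QKO control high CHIR. With 1 of 2 libraries left out, the lone library was assumed to vary like the other groups.

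The number of members called moved as follows, and the cause was not tested. For WT high against low CHIR it went from 2 to 3 by DESeq2 and with only the groups compared (Sall2), and for WT high against no CHIR from 3 to 2 with only the groups compared and at a log2 fold threshold of 1 (without Sall1). For WT no against low CHIR it went from 1 to 2 with the replicate block, to 3 with only the groups compared and 3 by DESeq2, and over leave-outs from 1 to 2. For Cre in low CHIR it went from 0 to 1 with the replicate block and 1 by DESeq2 (Sall1, adjusted p = 0.00422 and 0.0106). For Cas9 in high CHIR it went from 2 to 1 at a log2 fold threshold of 1, and was 1 in every leave-out. For the dose comparison in Cre-neg cells it went from 1 to 2 with TMM rescaling, 2 by edgeR, 3 with the replicate block and 3 by DESeq2, and in GFP sgRNA cells from 1 to 3 with the replicate block and from 1 to 2 over leave-outs. For QKO in high CHIR it went from 1 to 2 without the filter on low values, 3 with the replicate block and 3 with only the groups compared, and over leave-outs from 1 to 3. For the dose comparison in QKO cells leave-outs gave 0 to 1. For the QKO interaction it went from 0 to 1 with the replicate block and 1 by DESeq2.

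The replicate block pairs libraries by number. In the β-catenin table it raised the genes called over the whole table, for example from 55 to 513 for Cre in low CHIR and from 854 to 2133 for Cas9 in high CHIR. It changed no member call other than those given here or in the values above.

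Values that changed sign were small and not called in the main test. Wt1 for Cre in high CHIR was −0.105 by edgeR and −0.098 by DESeq2, Sall2 with dose in Cre-pos was −0.059 and −0.041, and Sall2 for QKO in high CHIR was −0.096 and −0.100. These fits held replicate 2 alone for Cre-pos high CHIR and lacked replicate 2 of QKO control high CHIR. The parts of the method and of the missing libraries were not tested apart. Leave-out ranges that crossed 0 were, for high against low CHIR in WT cells, −0.16 to 0.39 for Sall1, and for high against no CHIR −0.034 to 0.43 for Sall2. For removal they were −0.72 to 1.39 for Osr2 (Cre, low CHIR), −0.099 to 0.24 for Wt1 (Cre, high CHIR), −0.27 to 0.66 for Osr2 and −0.24 to 0.056 for Sall2 (Cas9, low CHIR), −0.023 to 0.32 for Sall2 (Cas9, high CHIR), −0.48 to 0.40 for Osr1 and −0.39 to 0.30 for Wt1 (QKO, low CHIR), and −0.105 to 0.14 for Sall2 (QKO, high CHIR). With dose in Cre-pos cells they were −0.038 to 0.47 for Osr1, −0.29 to 1.82 for Osr2, −0.70 to 0.065 for Wt1, −0.069 to 0.39 for Sall1 and −0.037 to 0.21 for Sall2. With dose in Ctnnb1 sgRNA cells they were −0.49 to 0.24 for Osr1, −0.043 to 0.20 for Wt1, −0.065 to 0.42 for Sall1 and −0.24 to 0.098 for Sall2. The range was −0.48 to 0.17 for Wt1 with dose in QKO cells and −1.09 to 1.02 for Osr2 in the Cre interaction.

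The genes called over whole tables, against which the members were read, moved by over 1.5 times in most comparisons. Leave-outs aside, counts ran over alternatives from 499 to 2038 (main 865) for WT no against low CHIR, 2662 to 4731 (4070) for high against no CHIR, 11 to 513 (55) and 714 to 2639 (1452) for Cre in low and high CHIR, 0 to 21 (9) and 631 to 2133 (854) for Cas9, 616 to 2661 (1350) and 628 to 2562 (1260) for dose in Cre-neg and GFP sgRNA, 0 to 128 (49) and 118 to 447 (128) in Cre-pos and Ctnnb1 sgRNA, 51 to 526 (167) and 63 to 235 (87) for the β-catenin interactions, 0 to 25 (1) and 156 to 1181 (404) for QKO in low and high CHIR, 1568 to 3321 (2372) and 328 to 952 (403) for dose in QKO control and QKO cells, and 11 to 136 (20) for the QKO interaction. Leaving out 1 library gave 996 to 2277 for WT high against low CHIR (main 1808), 113 to 1031 for no against low, 2609 to 4474 for high against no, 18 to 302 and 839 to 971 for Cre in low and high CHIR, 0 to 1 and 205 to 421 for Cas9, 770 to 1729 and 500 to 664 for dose in Cre-neg and GFP sgRNA, 152 to 476 for QKO in high CHIR, and 1547 to 3115 and 129 to 307 for dose in QKO control and QKO cells. Depth limits Osr2 and Sall4, whose values rest on few reads.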
